A study of Mus musculus with 12 samples.

Results

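Chemokine ligands and their receptors were followed by RNA sequencing of mouse left ventricles after pressure overload or a sham operation. Members were taken by name from the table of raw counts: symbols that start with Ccl, Cxcl, Ccr, Cxcr or Ackr followed by a digit, together with Cx3cl1, Cx3cr1 and Xcr1, with a mean raw count of at least 5 over the 12 libraries. Of 55401 genes, 63 carried such a name, 2 were left out as pseudogenes by name and 24 fell below the mean count, which left 37 members, 22 ligands and 15 receptors. Cxcr3 and Cxcr2 lay just inside the threshold, with mean raw counts of 5.17 and 5.5, and Ackr1, Cxcr5 and Cxcl5 just outside it, with 4.92, 4.75 and 4.58.

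The study has 4 groups of 3 libraries: mice with the T497A substitution in Prkca after transverse aortic constriction (T497A TAC), the same genotype after a sham operation (T497A sham), wild type after constriction (WT TAC) and wild type after sham (WT sham). Prkca encodes protein kinase C alpha, and T497A replaces a threonine in its activation loop. TAC narrows the aortic arch and loads the left ventricle with pressure. It was done around a 27-gauge needle at 10 weeks of age, and tissue was taken 5 weeks later, at 15 weeks. The comparisons ask how pressure overload changes the ventricle in each genotype and whether that response depends on the substitution. The series title refers to CRISPR-Cas9 base editing, while the labels give T497A as a genotype and do not say how it was made. Strain and sex were not given in the sources used here, and a substitution cannot be checked from gene counts. Each of the 12 titles names a mouse heart with a number of its own, but what the number stands for is not stated. If it is not an animal, the spread behind the p-values may be technical.

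Chemokines are small secreted or membrane-tethered proteins that attract leukocytes through receptors coupled to inhibitory G proteins. CC chemokines such as Ccl2 recruit mainly monocytes, eosinophils and lymphocytes, and CXC chemokines recruit neutrophils, lymphocytes and progenitor cells. Atypical receptors (Ackr) bind chemokines without coupling to G proteins and remove them. In the heart, resident macrophages, endothelium and fibroblasts are sources of chemokines, and Ccr2 marks macrophages derived from blood monocytes.

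Library totals lay between 36862004 and 46898344 counts. Mitochondrial genes took 24.6% to 26.1% of counts in T497A TAC, 28.3% to 30.9% in T497A sham, 19.6% to 20.9% in WT TAC and 25.1% to 29.0% in WT sham. The labels name the cell type cardiomyocyte, but the tissue is left ventricle and no sort is described. Markers of other cells were present in every library: 12 macrophage markers summed to 175 to 309 CPM (a gene's reads relative to the scaled total of its library), 6 endothelial markers to 624 to 883 CPM and 6 fibroblast markers to 830 to 2120 CPM. Neutrophil, T cell, B cell and NK cell markers summed to at most 5.74 CPM in any library, and the neutrophil marker Ly6g was at 0 in all 12. In whole tissue, fewer cells of a type and less RNA per cell cannot be told apart.

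Per exon length, Cxcl12 was the most abundant member. Levels between genes are given here as CPM per kilobase of exon (RPKM), averaged over the 12 libraries. Cxcl12, which retains progenitor cells and lymphocytes in tissues, had 27.7 RPKM, and Ackr3, an atypical receptor that removes Cxcl12, had 18.9 RPKM. Cxcl14, a CXC ligand made by epithelium and stroma, had 8.95 RPKM, Ccl21a, a ligand of Ccr7, 6.3 RPKM, and Cxcr4, the signalling receptor of Cxcl12, 4.04 RPKM. Ccl6, a macrophage-derived ligand of Ccr1, had 3.41 RPKM and Cx3cl1, the membrane-tethered fractalkine, 3.06 RPKM. All other members but Cxcl16, at 2.29 RPKM, averaged 2 RPKM or less, down to 0.0192 RPKM for Ccr9.

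**Figure D1:**
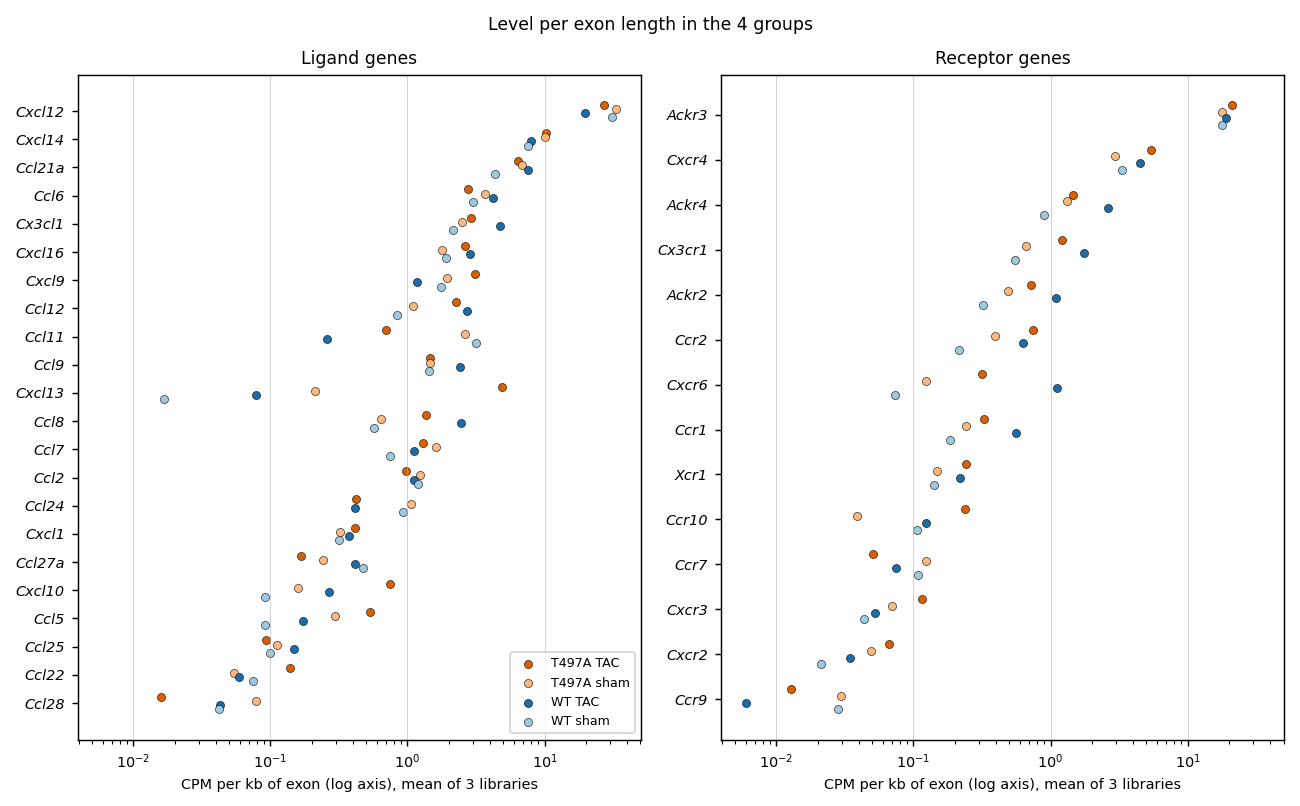
Level of 36 members in CPM per kilobase of exon, on a log axis, with 1 point per group (mean of 3 libraries) and ligands and receptors in separate panels. Cxcl12 and Ackr3 stand at the top in all 4 groups, and the groups lie furthest apart for Cxcl13, Cxcr6 and Ccl11.

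After TAC in wild type, 10 of the 34 members tested were higher and 3 were lower at an adjusted p under 0.05 (edgeR's quasi-likelihood test with Benjamini-Hochberg adjustment over 15764 genes). Over all genes tested, 12.3% were called higher and 12.6% lower, so the share of members called lower was not above that of all genes. The median log2 fold change was 0.57 over the members and 0.01 over all genes. The libraries of WT TAC and WT sham did not overlap for 18 of 34 members, where 42.2% of all genes did not overlap. Ccl22, Cxcr2 and Cxcr3 had too few counts to be tested. The 34 include members that passed the filter through the group in which they were high.

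After TAC in T497A, 0 of 34 members passed the test (12 at an unadjusted p under 0.05, 2 called by DESeq2 and 0 by limma-voom), where 0.114% of all genes were called. Of all 15764 genes, 1837 had an unadjusted p under 0.05 by edgeR, DESeq2 called 280 and limma-voom 0. The lowest adjusted p of a member was 0.145. The median log2 fold change was 0.30 over the members and 0.01 over all genes, and the libraries of T497A TAC and T497A sham did not overlap for 8 of 34 members, beside 15.4% of all genes. Between the genotypes after TAC, 1 member was higher in T497A, Cxcl12, and 1 was lower, Cxcr6, shares near those of all genes (4.64% higher and 4.06% lower). Here the libraries did not overlap for 11 of 34 members and 28% of all genes, and the median was -0.04 over the members and 0.00 over all genes.

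The test of whether the TAC effect differs between genotypes, the interaction, called 0 of 34 members (10 at an unadjusted p under 0.05, 3 by DESeq2, 0 by limma-voom), where 1.57% of all genes were called. Of all 15764 genes, 2647 had an unadjusted p under 0.05 by edgeR, DESeq2 called 816 and limma-voom 183. The lowest adjusted p of a member in the interaction was 0.0667, for Ccl21a. Without the low-count filter, edgeR called the interaction for 4 members (Ccl11, Ccl21a, Cxcl12 and Cxcr6) and for 898 of 29988 genes. A member past the threshold in wild type and not in T497A is therefore not shown by the filtered edgeR fit to respond differently in the 2 genotypes. With both genotypes averaged, 13 of 34 members were higher after TAC and 4 lower, where 11.2% of all genes were called higher and 11.2% lower, so the share lower was near that of all genes. The average and the wild type comparison share libraries.

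**Figure D2:**
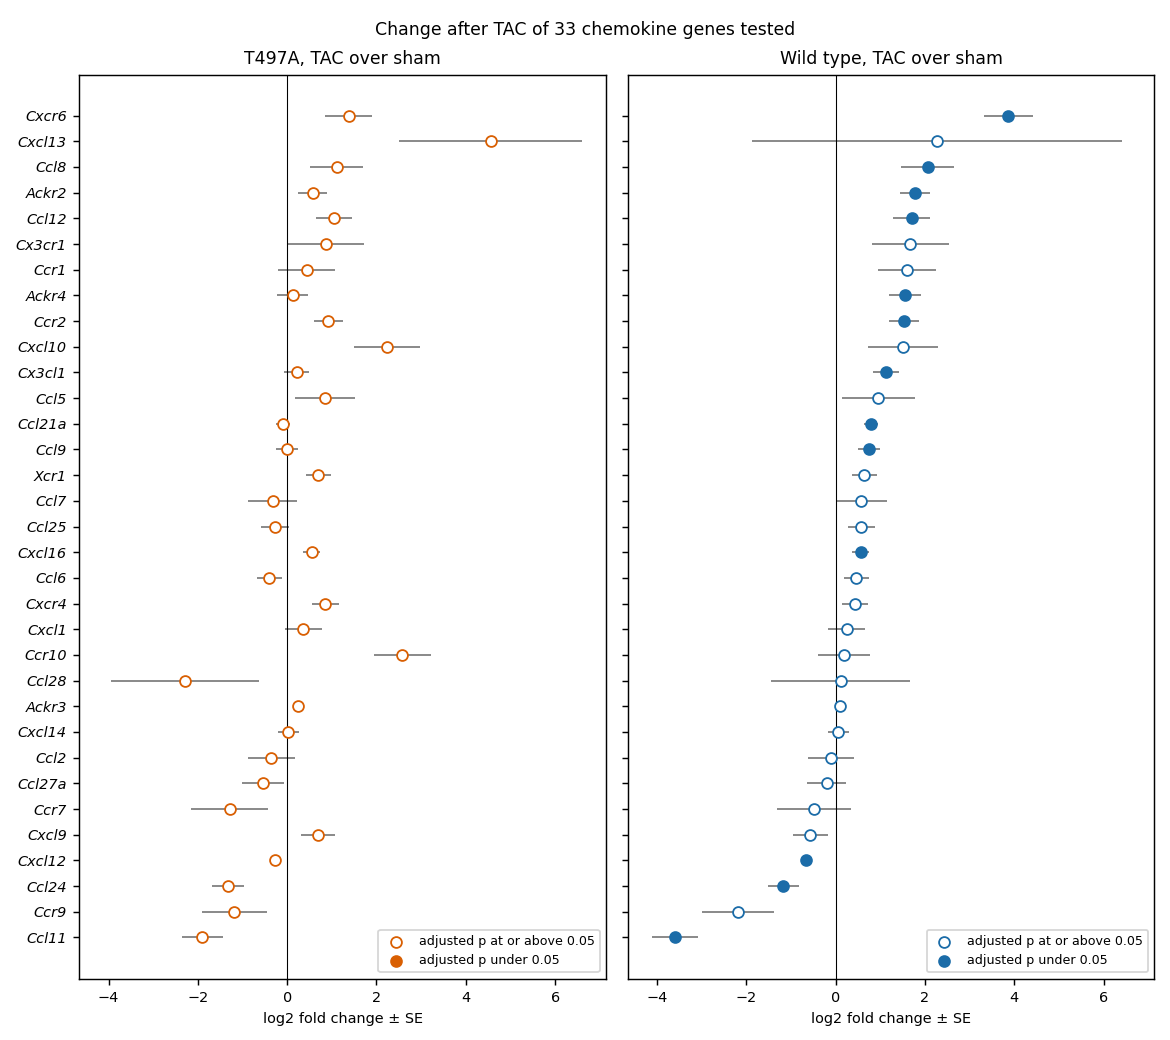
Log2 fold change of TAC over sham with its standard error for 33 of the 34 members tested, in T497A (left) and wild type (right), ordered by the wild type value. Filled points have an adjusted p under 0.05: 0 in T497A and 13 in wild type, from Cxcr6 at 3.87 to Ccl11 at -3.60.

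The membrane-tethered chemokine Cxcl16 and its receptor Cxcr6, which marks tissue-resident lymphocytes, were both higher in WT TAC. Cxcr6 had 0.58, 0.387 and 0.88 CPM in T497A TAC and 0.249, 0.333 and 0.132 CPM in T497A sham. It had 2.85, 1.11 and 2.49 CPM in WT TAC and 0.231, 0.134 and 0.0581 CPM in WT sham, which are 130, 48 and 107 reads against 10, 6 and 2. Every WT TAC library lay above all 9 others, and every T497A TAC library above all T497A sham libraries. The log2 fold change after TAC was 1.38 ± 0.52 (SE) in T497A, with an adjusted p of 0.323, and 3.87 ± 0.55 in wild type, 14.6-fold, with an adjusted p of 0.00023.

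After TAC, Cxcr6 was 3.48-fold lower in T497A than in wild type (log2 fold change -1.80 ± 0.47, adjusted p = 0.0314). This call was lost on leaving out T497A TAC 1, T497A TAC 2, WT TAC 1 or WT TAC 3, with an adjusted p of 0.0795 to 0.12. The interaction was -2.49 ± 0.76 with an adjusted p of 0.112. The 9 T cell markers summed to 3.35 to 5.74 CPM in T497A TAC and 2.4 to 3.44 CPM in WT TAC, against 2.71 to 3.83 CPM in T497A sham and 1.04 to 2.35 CPM in WT sham, so their sum was not lower in T497A TAC than in WT TAC. Of the 7 tested, 0 were called between the genotypes after TAC (0 at an unadjusted p under 0.05 and 0 by DESeq2 or limma-voom). The promoter of Cxcr6, the receptor with the largest rise, is shown from 250 bases before the start site to 50 bases after it. The RefSeq sequence on GRCm38.p6 spans chr9:123806227-123806526 on the plus strand, and has no capitals because none of the 5 motifs described with the Ccl12 promoter was matched.
Cxcr6: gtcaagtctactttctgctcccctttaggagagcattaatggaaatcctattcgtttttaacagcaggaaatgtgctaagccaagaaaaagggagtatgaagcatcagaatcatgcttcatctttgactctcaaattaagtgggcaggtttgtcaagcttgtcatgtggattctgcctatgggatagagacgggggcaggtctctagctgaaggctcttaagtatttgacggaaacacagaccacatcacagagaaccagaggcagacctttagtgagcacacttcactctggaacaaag

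Cxcl16 had 7.14, 9.06 and 7.44 CPM in T497A TAC and 4.33, 6.99 and 4.91 CPM in T497A sham. In wild type it had 8.79, 7.81 and 9.11 CPM after TAC and 4.55, 6.59 and 6.3 CPM after sham. In both genotypes every TAC library lay above every sham library, by a like amount: the log2 fold change was 0.54 ± 0.19 in T497A (adjusted p = 0.283) and 0.56 ± 0.19 in wild type (adjusted p = 0.0427). The interaction was -0.02 ± 0.27. Averaged over the genotypes, Cxcl16 was 1.47-fold higher after TAC, with an adjusted p of 0.00882. The wild type call was lost without T497A TAC 3, T497A sham 3, WT sham 1, WT sham 3 or any WT TAC library (adjusted p 0.0507 to 0.168). Exons of Cxcl16 overlap those of Zmynd15 on the other strand, which had a mean raw count of 51.5 and a log2 fold change of 0.02 in WT TAC.

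Cx3cl1, which anchors and attracts cells that carry Cx3cr1, had 11.5, 13.3 and 9.43 CPM in T497A TAC and 7.22, 15 and 7.39 CPM in T497A sham. It had 20, 14.7 and 20.6 CPM in WT TAC and 7.48, 10.5 and 7.26 CPM in WT sham. The wild type groups did not overlap, while T497A sham 2 lay above every T497A TAC library. Cx3cl1 was 2.19-fold higher in WT TAC (log2 fold change 1.13 ± 0.28, adjusted p = 0.0142), a call lost without the low-count filter and without WT TAC 3, WT sham 1 or WT sham 3 (adjusted p 0.0518 to 0.0598 without a library). In T497A its log2 fold change was 0.22 ± 0.28, and the interaction had an adjusted p of 0.28. Averaged over the genotypes the log2 fold change was 0.67 ± 0.20, with an adjusted p of 0.0334, a call lost without the low-count filter (adjusted p = 0.103) and on leaving out any of 8 of the 12 libraries (all but T497A TAC 3, T497A sham 2, WT TAC 2 and WT sham 2; adjusted p 0.0623 to 0.0863).

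Cx3cr1, the fractalkine receptor of monocytes and resident macrophages, was not called in any comparison and differed widely within groups. Its CPM were 6.43, 7.15 and 2.83 in T497A TAC, 1.09, 6.16 and 1.76 in T497A sham, 14.4, 2.49 and 6.64 in WT TAC and 0.831, 3.93 and 2.61 in WT sham. WT TAC 2 lay below WT sham 2 and 3, and T497A sham 2 above T497A TAC 3, so TAC and sham overlapped in both genotypes. The log2 fold change was 0.88 ± 0.85 in T497A and 1.68 ± 0.86 in wild type (adjusted p = 0.202).

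Of the 5 genes Ccl2, Ccl7, Ccl8, Ccl12 and Ccr2, listed together for attraction of monocytes, 3 were higher in WT TAC and 0 lower, where 12.3% of all genes were higher and 12.6% lower. The 3 were Ccr2, Ccl12 and Ccl8, of which Ccl8 in mice acts mainly through another receptor, Ccr8. The median log2 fold change of the 5 was 0.92 in T497A and 1.54 in wild type, where the median over all genes was 0.01 in each. Ccr2 had 4.02, 7.01 and 4.17 CPM in T497A TAC and 1.39, 3.77 and 2.86 CPM in T497A sham. It had 4.87, 3.14 and 4.66 CPM in WT TAC and 1.43, 1.25 and 1.68 CPM in WT sham. All TAC libraries lay above all sham libraries of their own genotype, and 2 of the 3 T497A sham libraries lay above every WT sham library. Ccr2 was 2.91-fold higher in WT TAC (adjusted p = 0.00491), with a log2 fold change of 0.92 ± 0.33 in T497A (adjusted p = 0.296) and an interaction of -0.62 ± 0.46.

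Ccl2, Ccl7, Ccl11, Ccl12 and Ccl8 lie in this order within one cluster on chromosome 11, all on the plus strand, with starts 10.1, 12.1, 44.0 and 13.3 kb apart. Neighbours in the cluster went different ways in WT TAC. Ccl12 (chr11:82101845-82103400), a mouse ligand of Ccr2, had 1.56, 0.483 and 1.62 CPM in T497A TAC and 0.498, 0.666 and 0.616 CPM in T497A sham. It had 1.8, 1.09 and 1.49 CPM in WT TAC and 0.416, 0.402 and 0.523 CPM in WT sham. T497A TAC 2 lay below every T497A sham library, and the wild type groups did not overlap. Ccl12 was 3.27-fold higher in WT TAC (adjusted p = 0.00872), with a log2 fold change of 1.04 ± 0.41 in T497A (adjusted p = 0.338).

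Ccl8 (chr11:82115185-82116799), a ligand that in mice acts mainly through Ccr8, and a low-count member with a mean of 27.7 reads, had 0.446, 0.483 and 1.16 CPM in T497A TAC and 0.249, 0.555 and 0.176 CPM in T497A sham. It had 1.45, 1.29 and 1.03 CPM in WT TAC and 0.369, 0.447 and 0.0581 CPM in WT sham. The wild type groups did not overlap and the T497A groups did. It was 4.18-fold higher in WT TAC (adjusted p = 0.0216), a call lost without WT TAC 1 or WT sham 3 (adjusted p 0.0606 and 0.0607). The log2 fold change in T497A was 1.11 ± 0.60. Averaged over the genotypes, Ccl12 was 2.59-fold higher after TAC (adjusted p = 0.00406) and Ccl8 3-fold (adjusted p = 0.0157).

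The other 2 ligands of these 5 genes were not called in any comparison. Ccl2, the main monocyte attractant, had 0.602, 1.55 and 1.16 CPM in T497A TAC, 0.796, 2.16 and 1.28 CPM in T497A sham, 2.37, 0.531 and 0.886 CPM in WT TAC and 1.2, 1.43 and 1.45 CPM in WT sham. Its highest library of all was WT TAC 1 and its lowest WT TAC 2, so WT TAC spanned the whole range. Ccl7 averaged 1.04 ± 0.11 CPM in T497A TAC, 1.30 ± 0.64 CPM in T497A sham, 0.889 ± 0.709 CPM in WT TAC and 0.595 ± 0.314 CPM in WT sham (SD, n = 3 each). Log2 fold changes after TAC were -0.35 ± 0.52 (Ccl2) and -0.32 ± 0.55 (Ccl7) in T497A, and -0.10 ± 0.51 and 0.57 ± 0.57 in wild type.

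The promoters of Ccl12 and Ccl8, neighbours that were both higher in WT TAC, are shown for comparison (RefSeq, GRCm38.p6, plus strand, chr11:82101595-82101894 and chr11:82114935-82115234). Promoter entries were matched for 28 of the 37 members. Those with none included Ccl2, Ccl5, Ccl7, Ccl11, Ccl24, Cxcl16, Ccr7 and Ccr10. Capitals mark matches, on either strand, to any of 5 letter patterns: the TATA box TATAAA, an ISRE-like GAAA followed by any 2 bases and GAAA, a kB-like GGGA followed by any 2 bases and TTCC, a STAT-like TTCNNNGAA and an AP-1-like TGANTCA. Each of these promoters held 1 match, TATAAA, that began at position -31 in Ccl12 and -32 in Ccl8, with the start site as 0. TATAAA was matched in 11 of the 28 members and in 13.6% of 32817 promoters of the same length. The match is a description of letters, not of a site.
Ccl12: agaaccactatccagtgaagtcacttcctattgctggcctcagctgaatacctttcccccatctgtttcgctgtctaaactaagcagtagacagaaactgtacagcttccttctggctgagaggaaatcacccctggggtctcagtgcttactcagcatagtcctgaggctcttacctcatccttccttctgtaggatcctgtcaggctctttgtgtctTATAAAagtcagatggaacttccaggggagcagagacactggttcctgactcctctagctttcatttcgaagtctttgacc
Ccl8: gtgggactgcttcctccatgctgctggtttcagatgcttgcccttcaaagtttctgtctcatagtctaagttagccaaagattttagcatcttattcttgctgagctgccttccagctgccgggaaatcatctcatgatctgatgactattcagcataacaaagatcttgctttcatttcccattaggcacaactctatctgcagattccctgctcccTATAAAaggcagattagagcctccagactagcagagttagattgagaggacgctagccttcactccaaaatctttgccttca

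Ccl11 and Ccl24, the eotaxins that attract eosinophils through Ccr3, were both lower after TAC. Ccl11 (chr11:82057823-82062955, between Ccl7 and Ccl12) had 0.714, 0.628 and 0.927 CPM in T497A TAC and 2.94, 1.5 and 4.05 CPM in T497A sham. It had 0.416, 0.0924 and 0.326 CPM in WT TAC and 5.26, 2.28 and 2.73 CPM in WT sham. Every TAC library lay below every sham library of either genotype, and every WT TAC library below every T497A TAC library. Ccl11 was 12.2-fold lower in WT TAC (log2 fold change -3.60 ± 0.51, adjusted p = 0.000313). In T497A its log2 fold change was -1.90 ± 0.46 with an adjusted p of 0.145, DESeq2 called it there, and the interaction was 1.70 ± 0.68 with an adjusted p of 0.228. In T497A TAC over WT TAC it was 1.43 ± 0.53 with an adjusted p of 0.117. DESeq2 and the fit without a filter on low counts called that difference.

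Ccl24 had 0.692, 0.435 and 0.51 CPM in T497A TAC and 1.29, 1.86 and 0.99 CPM in T497A sham. It had 0.482, 0.37 and 0.746 CPM in WT TAC and 1.25, 1.03 and 1.34 CPM in WT sham. TAC and sham did not overlap in either genotype. Ccl24 was 2.25-fold lower in WT TAC (adjusted p = 0.0262), a call lost without WT TAC 1, WT TAC 2, WT sham 1 or WT sham 3 (adjusted p 0.0683 to 0.091). Its log2 fold change was -1.33 ± 0.35 in T497A (adjusted p = 0.168) and -1.17 ± 0.35 in wild type, and the interaction was -0.16 ± 0.50. Averaged over the genotypes, Ccl11 was 6.74-fold lower after TAC (adjusted p = 0.000151) and Ccl24 2.38-fold (adjusted p = 0.00273). The eotaxin receptor Ccr3 had a mean of 0.833 reads and is no member.

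**Figure D3:**
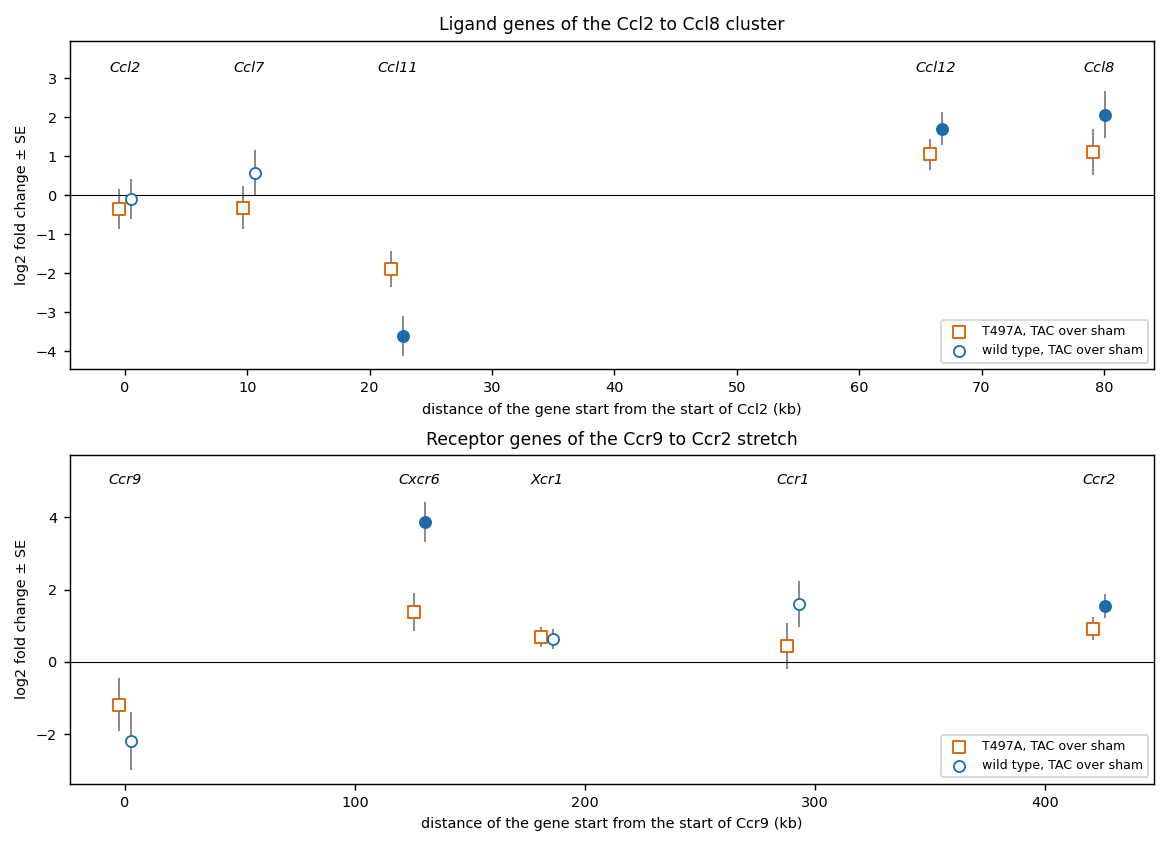
Log2 fold change of TAC over sham with its standard error against the distance of each gene's start from the first gene of its cluster, in kilobases, for 5 ligand genes and 5 receptor genes (squares for T497A, circles for wild type, filled where the adjusted p is under 0.05). Ccl11 lies at -3.60 in wild type between Ccl7, which was not called, and Ccl12 at 1.71. Among the receptors Cxcr6 lies at 3.87 and Ccr2 at 1.54. Other genes of the family in these stretches are not drawn.

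In the receptor cluster on chromosome 9, where Ccr9, Cxcr6, Xcr1, Ccr1 and Ccr2 lie, Cxcr6 and Ccr2 were called higher in WT TAC. Ccr1, a receptor of monocytes and neutrophils, averaged 0.923 ± 0.606 CPM in T497A TAC, 0.688 ± 0.569 CPM in T497A sham, 1.59 ± 0.95 CPM in WT TAC and 0.521 ± 0.121 CPM in WT sham (SD, n = 3 each). Its log2 fold change was 0.44 ± 0.64 in T497A and 1.6 ± 0.65 in wild type (adjusted p = 0.0924), and DESeq2 called the wild type value.

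Xcr1, the receptor of cross-presenting dendritic cells, had 1.23, 1.01 and 0.973 CPM in T497A TAC and 0.672, 0.721 and 0.594 CPM in T497A sham. It had 1.18, 0.855 and 0.886 CPM in WT TAC and 0.6, 0.581 and 0.697 CPM in WT sham. All 6 TAC libraries lay above all 6 sham libraries. The log2 fold change was 0.69 ± 0.28 in T497A and 0.64 ± 0.28 in wild type, neither of which passed the test alone (adjusted p = 0.35 and 0.12). The average was 1.59-fold higher after TAC (adjusted p = 0.028), a call lost without the low-count filter (adjusted p = 0.152) and without T497A TAC 1, T497A sham 1, T497A sham 3, WT TAC 1, WT sham 1 or WT sham 2 (0.0512 to 0.0757). Of the 5 dendritic cell markers, only Clec9a, which marks the cells that carry Xcr1, was called in WT TAC. It was higher there (log2 fold change 0.70 ± 0.24, adjusted p = 0.0456, not called by limma-voom), with 0.27 ± 0.24 in T497A (adjusted p = 0.726). The others went both ways in WT TAC: Flt3 was at 1.14, Zbtb46 at 0.32, Cd209a at -0.228 and Siglech at -0.597. In T497A, Flt3 and Cd209a were lower after TAC and Zbtb46 and Siglech hardly changed, all without a call. The part of these markers in the Xcr1 result was not tested. The sum of the 5, most of it Zbtb46, was 15 to 18 CPM in T497A TAC, 15.4 to 18.8 CPM in T497A sham, 17.1 to 19.2 CPM in WT TAC and 12.6 to 15.8 CPM in WT sham.

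Cxcl12 was lower in WT TAC, and after TAC it was higher in T497A than in wild type. It had 229, 242 and 195 CPM in T497A TAC and 240, 320 and 249 CPM in T497A sham. It had 164, 155 and 163 CPM in WT TAC and 239, 276 and 248 CPM in WT sham. The 3 WT TAC libraries lay close together and below all other libraries. The log2 fold change after TAC was -0.28 ± 0.11 in T497A (adjusted p = 0.328) and -0.66 ± 0.11 in wild type (1.58-fold lower, adjusted p = 0.000631). T497A TAC over WT TAC gave 0.47 ± 0.11 (1.39-fold higher in T497A, adjusted p = 0.0174), a call lost without T497A TAC 1, WT TAC 2 or WT TAC 3 (adjusted p 0.0526 to 0.0651). The interaction was 0.38 ± 0.15 with an adjusted p of 0.216.

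The promoter of Cxcl12 is shown because this gene has the highest level per length and was lower in WT TAC, where most called members were higher (RefSeq, GRCm38.p6, chr6:117168285-117168584, plus strand). None of the 5 motifs was matched in this window.
Cxcl12: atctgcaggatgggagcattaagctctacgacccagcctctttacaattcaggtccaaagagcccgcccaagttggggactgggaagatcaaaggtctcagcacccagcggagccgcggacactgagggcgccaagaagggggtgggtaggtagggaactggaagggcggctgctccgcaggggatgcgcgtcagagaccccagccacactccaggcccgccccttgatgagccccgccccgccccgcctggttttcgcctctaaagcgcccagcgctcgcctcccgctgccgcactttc

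The receptors of Cxcl12 did not move with it. Cxcr4 had 9.19, 12.1 and 7.74 CPM in T497A TAC and 4.53, 7.32 and 4.22 CPM in T497A sham. It had 12.2, 5.8 and 6.43 CPM in WT TAC and 6.37, 5.99 and 5.66 CPM in WT sham. The T497A groups did not overlap and the wild type groups did, with WT TAC 1 far above the other 2 WT TAC libraries. Cxcr4 was 1.57-fold higher after TAC on average over the genotypes (adjusted p = 0.0415). This call was lost without the low-count filter (adjusted p = 0.0882) and on leaving out any of 8 libraries (all but T497A TAC 3, T497A sham 2, WT TAC 2 and WT TAC 3; adjusted p 0.0626 to 0.103). Ackr3 had 74.6, 72.2 and 65.2 CPM in T497A TAC, 54.3, 68.1 and 57.3 CPM in T497A sham, 62.8, 60.5 and 68.2 CPM in WT TAC and 52.6, 68.1 and 57 CPM in WT sham. TAC and sham overlapped for Ackr3 in both genotypes, and it was called in no comparison, with log2 fold changes of 0.24 ± 0.11 in T497A and 0.11 ± 0.11 in wild type.

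Both of the other atypical receptors tested were higher in WT TAC. Ackr2, which scavenges inflammatory CC chemokines such as Ccl2, had 2.68, 2.13 and 1.95 CPM in T497A TAC and 1.24, 2.22 and 1.1 CPM in T497A sham. It had 3.77, 2.68 and 3.8 CPM in WT TAC and 0.554, 1.16 and 1.28 CPM in WT sham. The wild type groups did not overlap, while T497A sham 2 lay above 2 of the 3 T497A TAC libraries. Ackr2 was 3.43-fold higher in WT TAC (adjusted p = 0.00171), with a log2 fold change of 0.57 ± 0.33 in T497A (adjusted p = 0.535) and an interaction of -1.21 ± 0.47 (adjusted p = 0.204).

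Ackr4, which scavenges Ccl19, Ccl21 and Ccl25, had 4.33, 10 and 9.03 CPM in T497A TAC and 5.72, 4.69 and 10.9 CPM in T497A sham. It had 11.9, 17.3 and 13.1 CPM in WT TAC and 4.82, 4.56 and 5.05 CPM in WT sham. Every WT TAC library lay above all other libraries, while the T497A groups overlapped. Ackr4 was 2.93-fold higher in WT TAC (adjusted p = 0.00938), its log2 fold change in T497A was 0.13 ± 0.35, and the interaction was -1.43 ± 0.49 (adjusted p = 0.177, called by DESeq2). For T497A TAC over WT TAC it was -0.86 ± 0.34 (adjusted p = 0.159, called by DESeq2). The average over the genotypes, 0.84 ± 0.25, had an adjusted p of 0.0337 and lost its call without the low-count filter (adjusted p = 0.1004) and on leaving out any of 9 libraries (all but T497A TAC 1, T497A sham 3 and WT TAC 1; adjusted p 0.0573 to 0.0861). Ackr4 is an uncertain member: its exons overlap those of Acad11 on the other strand, a gene with a mean of 6590 reads. Use of strand in counting was not given in the sources used here. Acad11 had a log2 fold change of -0.54 ± 0.09 in WT TAC, opposite to Ackr4.

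Ccl21a, which guides dendritic cells and lymphocytes that carry Ccr7, had 5.09, 6.04 and 5.61 CPM in T497A TAC and 6.02, 6.82 and 4.97 CPM in T497A sham. It had 6.09, 7.76 and 5.97 CPM in WT TAC and 4.2, 3.66 and 3.54 CPM in WT sham. The 3 WT sham libraries lay below all 9 others, which overlapped one another. Ccl21a was 1.74-fold higher in WT TAC (adjusted p = 0.00273) and had a log2 fold change of -0.09 ± 0.16 in T497A. The interaction was -0.88 ± 0.23 with an adjusted p of 0.0667, and was called by DESeq2 and without a filter on low counts. T497A sham over WT sham gave 0.64 ± 0.16, with an unadjusted p of 0.00146 and an adjusted p of 1. The average over the genotypes (0.35 ± 0.11, adjusted p = 0.0372) lost its call without the low-count filter (adjusted p = 0.0512) and without T497A TAC 2, T497A TAC 3, T497A sham 1, T497A sham 3, WT TAC 2, WT sham 2 or WT sham 3 (adjusted p 0.0637 to 0.0957). Ccl21a has near-identical copies, Ccl21b among them, that were listed with 0 counts, so the value may stand for more than 1 gene. Of the 4 lymphatic endothelium markers, Pdpn (log2 fold change 1.38 ± 0.19, adjusted p = 0.000183) and Flt4 (0.41 ± 0.10, adjusted p = 0.0112) were higher in WT TAC, Prox1 was at -0.63 ± 0.22 (adjusted p = 0.0585) and Lyve1 at 0.11 ± 0.31. In T497A over wild type after TAC, Pdpn was lower (-0.86 ± 0.19, adjusted p = 0.013), the 1 marker of the 4 called by edgeR. In that comparison DESeq2 called 1 of the 4 higher and 2 lower, and limma-voom 0 and 1. The part of these markers in the Ccl21a result was not tested. DESeq2 and limma-voom called 2 of the 4 higher and 1 lower in WT TAC. Their sum, with Prox1 as its largest part, was 167 to 174 CPM in T497A TAC, 147 to 196 CPM in T497A sham, 123 to 159 CPM in WT TAC and 159 to 183 CPM in WT sham. Ccr7 itself, with a mean of 7.58 reads, was called in no comparison.

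Ccl9 and Ccl6, macrophage-derived ligands of Ccr1 found in rodents, lie 14.5 kb apart on chromosome 11. Ccl9 had 2.86, 5.41 and 4.96 CPM in T497A TAC and 4.73, 4.33 and 4.18 CPM in T497A sham. It had 7.76, 7.53 and 6.66 CPM in WT TAC and 3.79, 5.94 and 3.31 CPM in WT sham. Every WT TAC library lay above all other libraries. Ccl9 was 1.68-fold higher in WT TAC (adjusted p = 0.0344), a call lost without WT sham 1, WT sham 3 or any WT TAC library (adjusted p 0.0581 to 0.135). Its log2 fold change in T497A was 0.00 ± 0.24, and between the genotypes after TAC it was -0.73 ± 0.24, with an adjusted p of 0.0746 by edgeR. DESeq2, limma-voom and the fit without a low-count filter called that difference. Ccl6 had 3.01, 5.85 and 6.12 CPM in T497A TAC, 6.22, 7.88 and 5.65 CPM in T497A sham, 7.93, 7.09 and 7.43 CPM in WT TAC and 4.82, 7.73 and 3.66 CPM in WT sham. TAC and sham overlapped for Ccl6 in both genotypes, and it was called in no comparison.

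Cxcl9 and Cxcl10, interferon-induced ligands that attract T cells through Cxcr3, had their highest value of all in T497A TAC 3. Cxcl10 had 0.446, 1.28 and 3.29 CPM in T497A TAC and 0.323, 0.555 and 0.198 CPM in T497A sham. It had 0.679, 0.346 and 0.769 CPM in WT TAC and 0.0462, 0.402 and 0.174 CPM in WT sham. TAC and sham overlapped in both genotypes. Averaged over the genotypes, Cxcl10 was 3.64-fold higher after TAC (adjusted p = 0.0255), with a log2 fold change of 2.23 ± 0.74 in T497A (adjusted p = 0.268) and 1.5 ± 0.79 in wild type (adjusted p = 0.192). The call was lost with limma-voom, and without T497A TAC 3, T497A sham 1, T497A sham 3, WT TAC 1, WT TAC 3, WT sham 1 or WT sham 3 (adjusted p 0.0511 to 0.0657 without a library). Exons of Cxcl10 overlap those of Art3 on the other strand, which had a mean of 9760 reads against 30.2 for Cxcl10 and a log2 fold change of -0.50 ± 0.16 in WT TAC.

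Cxcl9, described after its values were seen, had 4.06, 8.94 and 15.3 CPM in T497A TAC and 5.18, 7.32 and 5.1 CPM in T497A sham. It had 4.47, 2.82 and 3.36 CPM in WT TAC and 4.52, 5.56 and 5.72 CPM in WT sham. In wild type the TAC libraries lay below the sham libraries, though only by 4.47 against 4.52 CPM at the closest, while in T497A the groups overlapped. The wild type log2 fold change was -0.57 ± 0.39 (adjusted p = 0.333). After TAC, Cxcl9 was 2.65-fold higher in T497A, just short of the threshold by edgeR (adjusted p = 0.0507) and called by DESeq2. The genotypes overlapped there, with T497A TAC 1 below WT TAC 1. The interaction was 1.25 ± 0.55 (adjusted p = 0.281). Their receptor Cxcr3 had 5.17 reads on average and was not tested.

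The promoter of Cxcl10 is shown because it held 3 of the 5 motifs (RefSeq, GRCm38.p6, chr5:92348840-92349139, minus strand). In capitals are the ISRE-like match at position -213, the kB-like match at -159 and the AP-1-like match at -74. The ISRE-like motif was matched in 3.43% of all promoters, the kB-like in 1.47%, the STAT-like in 8.29% and the AP-1-like in 7.81%. Among the 28 members with an entry, they were matched in 2, 2, 1 and 5. Cxcl10 and Cxcl1, a neutrophil attractant that was called in no comparison, were the members with a kB-like match.
Cxcl10: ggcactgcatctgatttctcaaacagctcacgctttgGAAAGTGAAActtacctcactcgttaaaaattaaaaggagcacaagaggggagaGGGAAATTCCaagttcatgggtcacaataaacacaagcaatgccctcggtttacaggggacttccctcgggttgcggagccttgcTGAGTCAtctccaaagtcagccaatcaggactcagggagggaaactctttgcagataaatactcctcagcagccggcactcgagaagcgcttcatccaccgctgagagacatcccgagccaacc

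Cxcl14 had 18.8, 19.3 and 17.9 CPM in T497A TAC, 16.6, 18.1 and 20.2 CPM in T497A sham, 15.8, 8.82 and 19.1 CPM in WT TAC and 17.3, 12.2 and 12.3 CPM in WT sham. It was called in no comparison, and its lowest library was WT TAC 2. A pair of low-count receptors were called in the average over the genotypes. Ccr10, the receptor of Ccl27 and Ccl28, had 0.245, 0.362 and 0.625 CPM in T497A TAC and 0.0747, 0.0832 and 0.044 CPM in T497A sham. It had 0.219, 0.139 and 0.28 CPM in WT TAC and 0.3, 0.134 and 0.116 CPM in WT sham. Its T497A groups did not overlap and its wild type groups did. The average log2 fold change was 1.39 ± 0.44 (adjusted p = 0.0345), with 2.58 ± 0.64 in T497A (adjusted p = 0.145) and 0.19 ± 0.58 in wild type. It rests on a mean of 9.33 reads, and the call was lost without the low-count filter (adjusted p = 0.0947) and on leaving out any of 9 libraries (all but T497A TAC 1, WT TAC 2 and WT sham 1; adjusted p 0.051 to 0.101).

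Ccr9, the receptor of Ccl25, had 0.178, 0.169 and 0.0463 CPM in T497A TAC and 0.348, 0.388 and 0.176 CPM in T497A sham. It had 0, 0.0462 and 0.14 CPM in WT TAC and 0.3, 0.223 and 0.348 CPM in WT sham. Every WT TAC library lay below every WT sham library, and the T497A groups overlapped. With a mean of 8 reads, its average log2 fold change was -1.69 ± 0.55 (adjusted p = 0.0403), a call lost on leaving out any of 10 libraries (all but T497A sham 3 and WT TAC 3; adjusted p 0.0525 to 0.0876). 

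The members not yet described were called in no comparison. Cxcl1 was at 0.741 to 0.822 CPM in T497A TAC, 0.249 to 0.804 CPM in T497A sham, 0.614 to 0.855 CPM in WT TAC and 0.416 to 0.755 CPM in WT sham. Ccl5, a T cell attractant with a mean of 11 reads, was at 0.268 to 0.788 CPM in T497A TAC and 0.176 to 0.348 CPM in T497A sham, against 0.0932 to 0.219 CPM in WT TAC and 0 to 0.174 CPM in WT sham. Ccl5 was higher in every T497A library than in every wild type library of the same surgery, with adjusted p values of 0.178 after TAC and 1 after sham. After sham the gap was very small, with 8 reads (0.176 CPM) in T497A sham 3 and 6 reads (0.174 CPM) in WT sham 3. Ccl27a, a skin-associated ligand of Ccr10, had log2 fold changes between the genotypes of -1.31 ± 0.46 after TAC (adjusted p = 0.0967) and -0.97 ± 0.45 after sham. Its exons overlap those of Il11ra1 on the other strand, which had a mean of 1240 reads against 32.1 for Ccl27a. After TAC, Il11ra1 was also lower in T497A than in wild type (log2 fold change -0.31 ± 0.08, adjusted p = 0.0256). The part of Il11ra1 in the Ccl27a values was not tested. Ccl27a has near-identical copies as well. Ccl25 was higher in every WT TAC library than in every WT sham library (log2 fold change 0.57 ± 0.30), and its exons overlap Elavl1.

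Cxcl13, a B cell attractant through Cxcr5, was singled out after its values were seen because 1 library held nearly all of its reads. T497A TAC 1 had 750 reads (16.7 CPM), and the other 2 T497A TAC libraries 0 and 2. The T497A sham libraries had 18, 10 and 0 reads, the WT TAC libraries 4, 6 and 2, and the WT sham libraries 0, 0 and 2. Its log2 fold change of 4.55 ± 2.05 after TAC in T497A therefore comes from 1 library. The 4 B cell markers summed to 1.81 CPM in T497A TAC 1, between the 0.695 and 2.2 CPM of the other 2 T497A TAC libraries. Ccl28, a mucosal ligand with a mean of 9.17 reads, was likewise uneven, from 0 to 0.924 CPM, with its highest library in T497A sham 3.

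**Figure D4:**
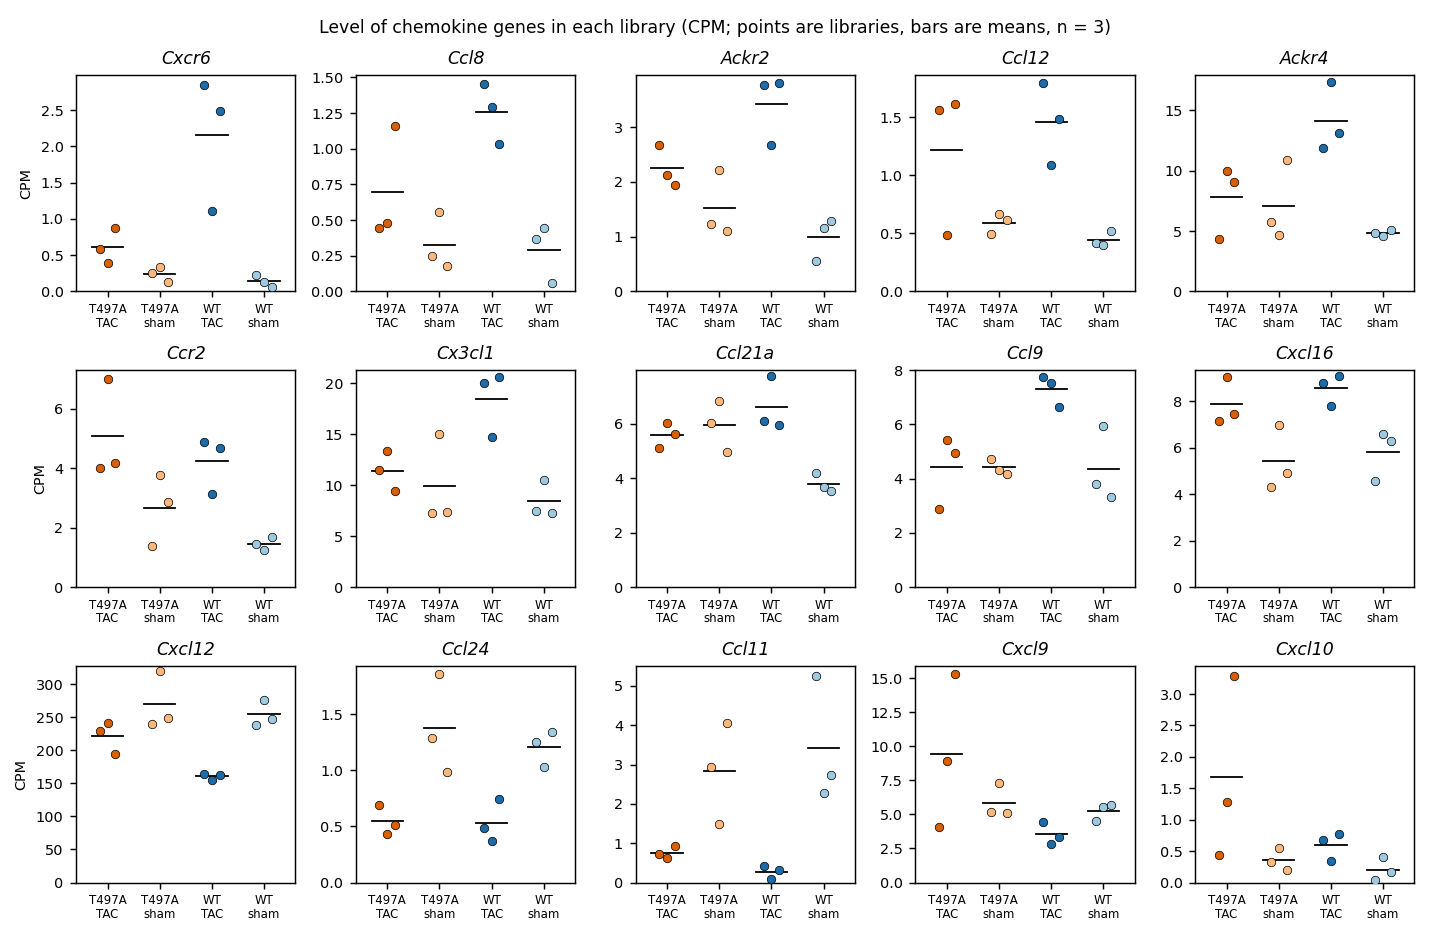
CPM in each library (points) with the mean of the 3 libraries of a group (bars), for the 13 members called in WT TAC against WT sham and for Cxcl9 and Cxcl10. The 3 WT TAC libraries stand apart from the 3 WT sham libraries for all 13, and T497A TAC 3 stands above the rest for Cxcl9, at 15.3 CPM, and Cxcl10, at 3.29 CPM.

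Between the genotypes after sham, 0 of 34 members were called (4 at an unadjusted p under 0.05, and 0 by DESeq2 or limma-voom), where 0.0254% of all genes were. The 4 were Ccl21a, Ccr2, Ccl5 and Ccl27a, all but Ccl27a higher in T497A. Of all 15764 genes, 477 had an unadjusted p under 0.05 by edgeR, DESeq2 called 11 and limma-voom 2. Of the 34 members, 29 had a log2 fold change above 0 and 5 below, with a median of 0.23, where the median over all genes was 0.00. The receptor Ccr2 was at 0.88 ± 0.34 and Ccl7 at 1.11 ± 0.57. This comparison shares WT sham with the wild type TAC comparison and T497A sham with the T497A TAC comparison, so a difference in sham libraries enters both.

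Of the 37 members, 4 had their highest value in the same library of each group, a pattern described after their values were seen. How many of all genes share this pattern was not counted. Ccl7, Ccr1, Cx3cr1 and Cxcl12 each had their highest value in T497A TAC 2, T497A sham 2, WT TAC 1 and WT sham 2. For Ccl2 and Ccr2 it was the same but for WT sham 3. The summed macrophage markers were highest in T497A TAC 2 (267 CPM), T497A sham 2 (215 CPM), WT TAC 1 (309 CPM) and WT sham 2 (198 CPM). The endothelial, fibroblast, inflammatory monocyte and B cell sums were highest in these libraries as well, so the order is not particular to the members. The marker sum varied far less than Cx3cr1 and Ccr1: from 195 to 267 CPM in T497A TAC, 199 to 215 CPM in T497A sham, 265 to 309 CPM in WT TAC and 175 to 198 CPM in WT sham.

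**Figure D5:**
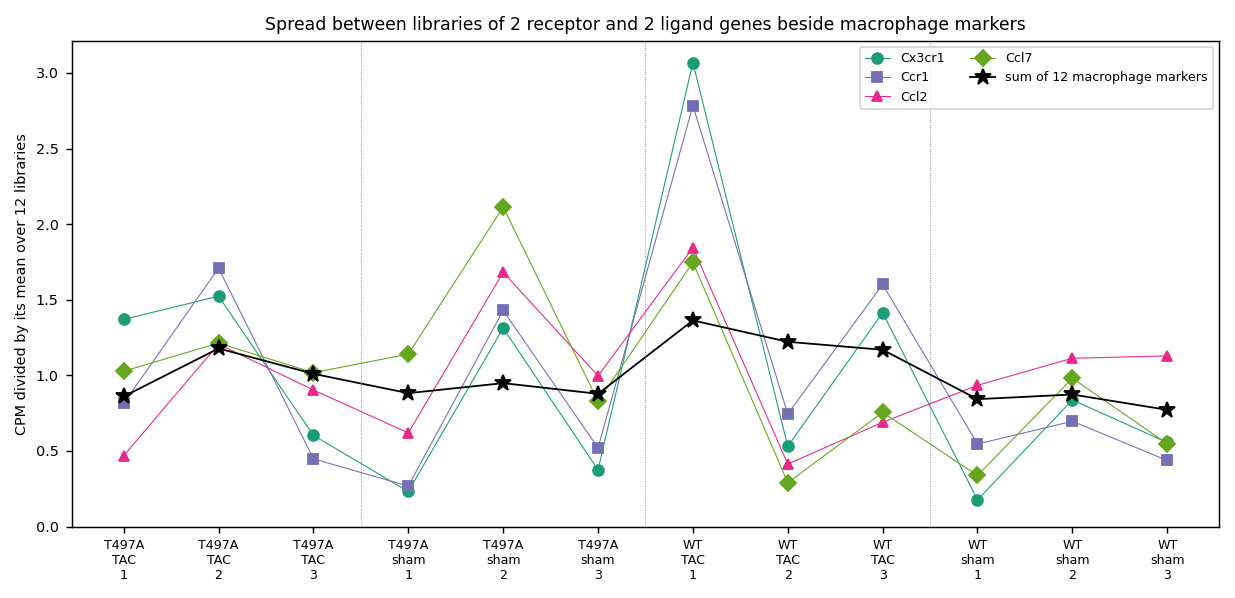
CPM of Cx3cr1, Ccr1, Ccl2 and Ccl7 in each of the 12 libraries, divided by the gene's mean over all libraries, with the sum of 12 macrophage markers treated likewise (stars). WT TAC 1 and T497A sham 2 lie above the other libraries of their groups for all 4 genes, more than for the marker sum. A sum over 12 genes may vary less than a single gene, which was not tested. Cxcl12, with 164 CPM in WT TAC 1 and 163 CPM in WT TAC 3, is not drawn.

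Of the 12 macrophage markers, 7 were called higher in WT TAC and 0 lower, where 12.3% of all genes were higher and 12.6% lower. Of the 6 inflammatory monocyte markers, 4 were tested and Fn1 and Vcan were called higher in WT TAC. S100a4 (log2 fold change 0.78 ± 0.47, adjusted p = 0.255) and Plac8 (1.80 ± 1.03, adjusted p = 0.233) were not called there. Ly6c2 and Chil3 had too few counts to be tested. Fn1 was at 61.7 to 179 CPM and Vcan at 19.7 to 124 CPM, while Plac8 reached at most 1.02 CPM. Which cells the Fn1 and Vcan reads came from was not tested. Erythrocyte markers were higher in WT TAC for 3 of 5. Among the fibroblast markers 4 of 6 were higher in WT TAC, with sums of 1180 to 1440 CPM in T497A TAC, 830 to 1110 CPM in T497A sham, 1850 to 2120 CPM in WT TAC and 865 to 948 CPM in WT sham. Cardiomyocyte markers summed to 44000 to 45700 CPM in T497A TAC, 46600 to 55000 CPM in T497A sham, 37400 to 45200 CPM in WT TAC and 51100 to 59500 CPM in WT sham, and 5 of 7 were called lower in WT TAC. In T497A over wild type after TAC, C1qa (log2 fold change -0.42, adjusted p = 0.0401), Fn1 (-0.50, 0.048), Col1a1 (-1.29, 0.0316) and Col1a2 (-1.06, 0.005) were lower, and Tnni3 (0.28, 0.0387) and Ryr2 (0.56, 0.0139) were higher. Called were thus 1 of 12 macrophage, 1 of 4 tested monocyte, 2 of 6 fibroblast and 2 of 7 cardiomyocyte markers. Of all genes, 4.64% were higher and 4.06% lower. Markers not called went both ways: Timd4 was at 0.44 and Mrc1 at -0.38, Myl2 at 0.19 and Actn2 at -0.23. The interaction was called for Col1a2 (-1.11, adjusted p = 0.0481) and Ryr2 (0.78, adjusted p = 0.0432). These were 1 of 6 fibroblast and 1 of 7 cardiomyocyte markers, where 1.57% of all genes were called. Of the 6 endothelial markers and of the 6 smooth muscle and pericyte markers, 0 were called in WT TAC. The called markers changed in the same comparisons as the called members, but not all in 1 direction. In WT TAC the called macrophage, fibroblast and erythrocyte markers, Fn1, Vcan and most called members were higher. Ccl11, Ccl24, Cxcl12 and the called cardiomyocyte markers were lower there. The part of the markers in these member results, and in the genotype calls of Cxcr6 and Cxcl12, was not tested.

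Genes that transmit, end or process chemokine signals were taken from a list of 53, of which 51 were tested. In WT TAC, 23 of 51 were higher and 1 lower, where 12.3% of all genes were higher and 12.6% lower. The median log2 fold change was 0.40, and 0.01 over all genes. Those higher included the G protein subunits Gnai2 (0.44 ± 0.09) and Gnai3 (0.36 ± 0.11), the arrestins Arrb1 (0.58 ± 0.11) and Arrb2 (0.74 ± 0.15), the haematopoietic Rac activators Dock2 (0.60 ± 0.20) and Vav1 (1.18 ± 0.29), and the leukocyte integrins Itgam (1.10 ± 0.28) and Itgb2 (0.83 ± 0.19). Mmp2, a protease that cleaves several chemokines, was at 1.39 ± 0.18, and the receptor Gpr35 at 3.17 ± 0.62. The one lower was Dpp4 (-0.74 ± 0.26), a protease that truncates Cxcl12 among others.

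In T497A, 0 of the 51 were called after TAC (9 at an unadjusted p under 0.05, 0 by DESeq2 or limma-voom), where 0.114% of all genes were, with a median of 0.19. Between the genotypes after TAC, 0 of 51 were higher and 4 lower in T497A, where 4.64% of all genes were higher and 4.06% lower. The 4 were Arrb1 (-0.50), Cmklr1, the chemerin receptor of macrophages (-0.73), Gnai2 (-0.35) and Mmp2 (-0.80). DESeq2 called 1 higher and 7 lower there, and limma-voom 0 and 5. Of all 15764 genes, DESeq2 called 1963 there in either direction and limma-voom 1454. The interaction called 0 of 51 by edgeR (8 at an unadjusted p under 0.05, 2 by DESeq2, 0 by limma-voom), where 1.57% of all genes were called. The comparison after sham called 0 by edgeR (2 at an unadjusted p under 0.05, 0 by either other tool), beside 0.0254% of all genes. An unadjusted p under 0.05 by edgeR was found for 1837 of all 15764 genes in T497A, 2647 in the interaction and 477 after sham. DESeq2 called the interaction for 816 of all genes. Averaged over the genotypes, 21 of 51 were higher after TAC and 0 lower, where 11.2% of all genes were higher and 11.2% lower, with 23 higher and 1 lower by DESeq2 and 21 and 0 by limma-voom.

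Most counts of the members were even numbers, and some members had few reads. Of the 37 members 10 had a mean raw count under 30, and Ccl8, Ccr10 and Ccr9 were the called members among them. Of the 444 member values 80.2% were even, with zeros taken as even, and 10 members had 12 even values of 12. Over all genes 68.4% of counts from 1 to 9 and 50.2% of counts of at least 10000 were even. With all counts halved, an alternative chosen after this was seen, the edgeR test called 13, 0, 2, 0, 0 and 17 members in WT TAC, T497A TAC, T497A against wild type after TAC and after sham, the interaction and the average, as without halving. That fit used the genes that passed the filter before halving, so the filter itself could not change a call. The cause of the even counts was not tested.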

How the data were processed

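The authors deposited 1 table of raw read counts for 55401 genes in 12 libraries. Per the submitters' processing notes, the tools were STAR 2.7.3a, Trim Galore 0.6.4, limma 3.50.3, Subread 1.6.3 and featureCounts, and the build was mm10. How strand and reads with several matches were handled is not known here. Libraries were made with an mRNA kit and sequenced single-end.

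The labels gave each library its genotype and surgery. Since every title has an identical replicate number, libraries were numbered by accession and not paired. Library totals were 36862004 to 46898344 counts, and the biological coefficient of variation was 17.2%. No pair of libraries of a group agreed within sampling noise. With 3 libraries per group, small changes of low-count members may not be detectable.

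Genes kept by filterByExpr (minimum count 10; 15764 genes) entered the main test, made in R 4.3.3 with edgeR 4.0.16: TMM scaling, then glmQLFit (robust) and glmQLFTest on a model of all 4 groups. P-values were adjusted by Benjamini-Hochberg over these genes, with a threshold of 0.05. Standard errors were derived from the log2 fold change and the F statistic. CPM use TMM-scaled library sizes, and RPKM are CPM per kilobase of merged exons (GENCODE vM21, GRCm38). Alternatives were DESeq2 1.42.0, limma-voom (limma 3.58.1), RLE scaling, no filter, mitochondrial genes left out, only the groups compared, each library left out, and counts halved.

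CPM of every library are given for members called in any of the 6 comparisons and for the 8 members with the highest mean CPM. Members and lists were chosen with earlier results of these data known. Low-count members have a mean raw count under 30. The values of 1 member are not reported here, though the counts and medians over members include it.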

Additional observations from a re-analysis of the deposited data

How the results depend on the processing

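No paired analysis was possible because all titles carry the same replicate number. Of 32 called member results, 17 kept their call under every alternative run, 15 lost it under at least 1, and 0 reversed. In WT TAC against WT sham, 13 members were called, with a leave-one-out range of 8 (without WT sham 3) to 14. Cxcr6, Ackr2, Ackr4, Ccl11, Ccl12, Ccl21a, Ccr2 and Cxcl12 were called under each. In T497A TAC against T497A sham, 0 were called, against 2 by DESeq2 (Ccl11 and Ccl24) and 4 without the low-count filter (Ccl11, Ccr2, Cxcl10 and Cxcl12). Over all 15764 genes, 18 were called there, against 280 by DESeq2 and 331 of 29988 without the filter. In T497A against wild type after TAC, 2 were called, against 6 by DESeq2 and 4 without the filter, with a leave-one-out range of 0 (without WT TAC 3) to 4 (without WT sham 2), and 1 without T497A TAC 1, WT TAC 1 or WT TAC 2. Over all 15764 genes, 1371 were called there, against 1963 by DESeq2 and 1757 of 29988 without the filter. The all-gene number was 463 without WT TAC 3 and 1244 without WT sham 2. The interaction had 0, against 3 by DESeq2 (Ackr4, Ccl21a and Cxcr6) and 4 without the filter (Ccl11, Ccl21a, Cxcl12 and Cxcr6). Over all 15764 genes it had 248, against 816 by DESeq2 and 898 of 29988 without the filter. The average had 17, with a leave-one-out range of 9 (without T497A sham 1) to 16, and 10 without WT sham 3. Without the filter it had 13, with Ackr4, Ccl21a, Ccr10, Cx3cl1, Cxcr4 and Xcr1 lost and Ccl9 and Ccr1 gained. The cause of these shifts was not tested. No scaling moved the median of all genes by over 0.1.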
